A study of Homo sapiens with 9 samples.

Results

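The genes described here are 9 enzymes that make, convert or break down pyrimidine nucleotides and the building blocks of DNA: RRM1, RRM2, TYMS, TK1, DUT, CAD, CTPS1, UMPS and UPP1. They were taken by name from the 27615 genes listed for the libraries, and the set was chosen by a reading of earlier log2 fold changes between the groups, from the counts of these same libraries. Their differences between treatments are therefore a description: no p-value is given for them, and where a count says that members passed the thresholds it places them among all genes and supports nothing. Of the 9, 8 were listed for all 9 libraries and TYMS for 8. RNA was sequenced from MDA-MB-231, an established human line of triple-negative breast cancer, in 3 groups of 3 libraries, with DMSO as the vehicle in 1 group and rimonabant and TXX-1-10 as the compounds in the others. Rimonabant is an antagonist of CB1, a cannabinoid receptor. Its derivative TXX-1-10 was studied for its effect on the growth of breast cancer cells. All cells were of the same line with no engineered allele named in the labels, and the dose and the length of treatment of the sequenced cells were not given in the sources used here, so the compounds are compared as they were used. The labels do not say whether the 3 libraries of a group came from separate cultures, so every p-value and error below measures the spread between these libraries, which may be technical.

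Cells replicate their DNA from deoxynucleotides. Ribonucleotide reductase makes them from ribonucleotides, with RRM1 as the large subunit and either RRM2, the small subunit used by dividing cells, or RRM2B, its counterpart outside S phase. Thymidylate is made from dUMP by TYMS or salvaged from thymidine by TK1, and DUT supplies dUMP while keeping uracil out of DNA. The pyrimidine ring itself is built by CAD, DHODH and UMPS, CTPS1 then turns UTP into CTP, and UPP1 splits uridine into uracil and ribose 1-phosphate. RRM2, TYMS and TK1 are textbook genes of the G1/S transition.

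The deposited FPKM values (fragments scaled to gene length and to a library total) rest on library totals of 17078370 to 19277808, and the listed counts summed to 14154805 to 18115258, above that total in vehicle replicates 1 and 3. The lists as used here held 4237 to 27615 genes and a gene missing from a list was not taken as 0. Thus 4236 genes entered the fit over all 9 libraries and 9369 the fit over 8, which leaves out rimonabant replicate 1. Shares and ranks over all genes below are over the genes of a fit. The 4237 genes listed for all 9 libraries are mostly abundant ones. They held 78.9% to 83.5% of the listed counts of the longer lists, and 4156 had a mean FPKM of at least 5. Rimonabant replicate 1 and TXX-1-10 replicate 3 stood apart: the log ratio of each library to its group fell with gene length, with Spearman's rho across genes of -0.69 in both, against 0.48 to 0.67 in the other 4 treated libraries, and the deviations of this pair from their groups correlated across genes (r = 0.9). The mesenchymal genes VIM (224 to 329 FPKM) and AXL (124 to 221 FPKM) were high in all 9 libraries, and CDH1, the epithelial cadherin, had a count of 0 in the 4 libraries that list it. Of the other epithelial genes, EPCAM was at 4.47 to 5.37 FPKM in 7 libraries, ERBB2 at 7.0 to 9.52 FPKM in 9 and GATA3 at 0.396 to 1.45 FPKM in 6. ESR1 and PGR, which mark hormone-dependent breast cancer, reached at most 0.0314 and 0.0459 FPKM, and the leukocyte gene PTPRC at most 0.0639 FPKM.

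In the vehicle libraries the 9 genes spanned levels from 9.04 to 113 FPKM. TK1 stood highest at 113 ± 8.81 FPKM (SD, n = 3), followed by RRM1 at 64.6 ± 2.13 and CAD at 37.1 ± 0.198 FPKM. DUT (30.4 ± 1.16 FPKM) and RRM2 (28.3 ± 1.58 FPKM) came next and their libraries overlapped, so their order is not beyond the spread. TYMS (17.4 ± 1.63 FPKM), UPP1 (12.7 ± 0.393), UMPS (10.5 ± 0.388) and CTPS1 (9.04 ± 0.215) followed without overlap. With TXX-1-10 this order changed at both ends. UPP1 became the most abundant of the 9 at 103 ± 10.2 FPKM, ahead of TK1 at 34.5 ± 3.25 FPKM, and RRM2 became the second lowest at 4.05 ± 0.458 FPKM, above CTPS1 at 2.96 ± 0.071 FPKM. RRM1 (22.6 ± 1.73 FPKM) and CAD (21.3 ± 2.33 FPKM) were then not separated. These levels divide by the length of all annotated exons, which was 1861 bases for TK1 and 11517 bases for CTPS1, so a gene with long, little-used exons is set low.

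**Figure D1:**
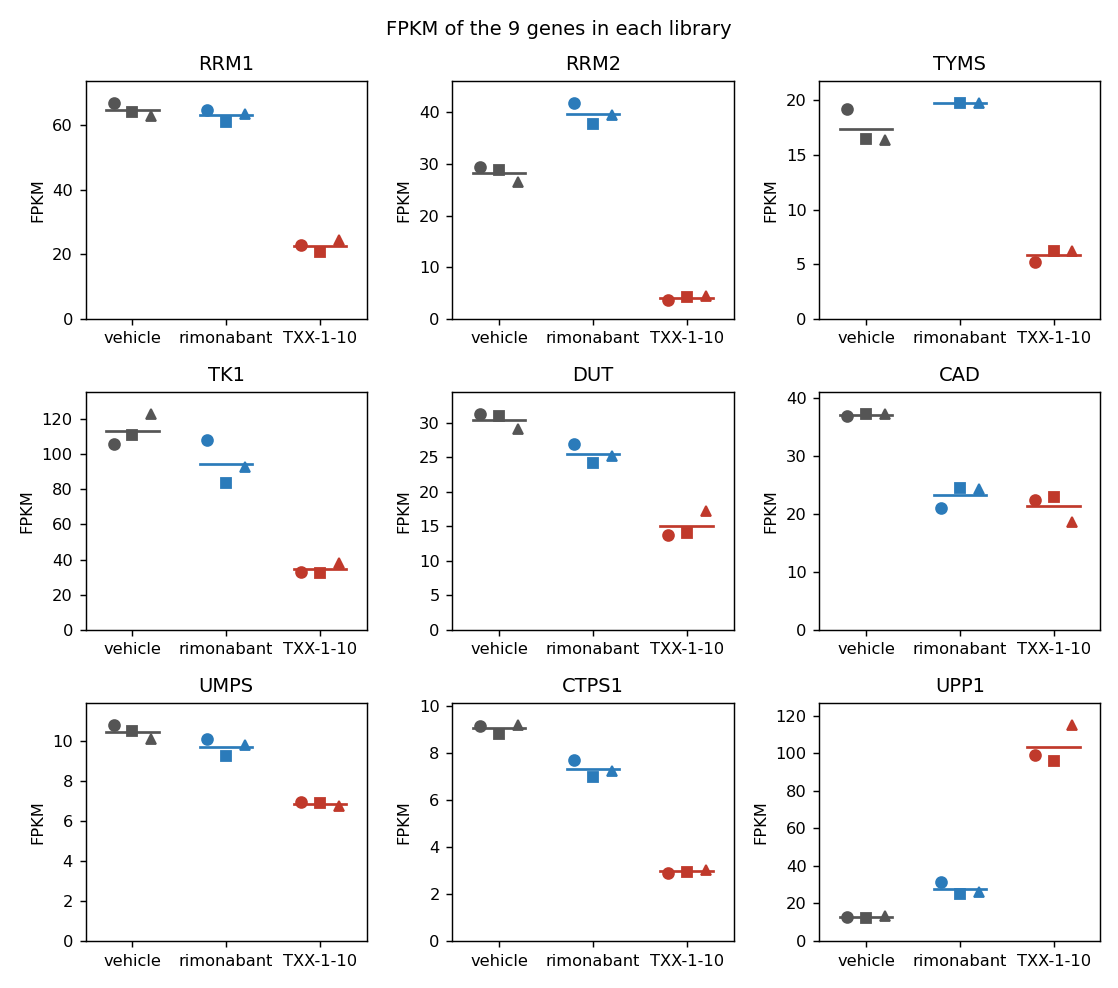
FPKM of each of the 9 genes (vertical axis, linear, starting at 0) in the vehicle, rimonabant and TXX-1-10 libraries. Circles, squares and triangles are replicates 1, 2 and 3, and the line is the group mean. For 8 genes the TXX-1-10 libraries lie below all vehicle libraries, and for UPP1 all lie above. TYMS has 2 rimonabant libraries.

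A gene is called changed below when its fold was at least 2 (1 on the log2 scale) at an adjusted p under 0.05, by edgeR's quasi-likelihood test with Benjamini-Hochberg adjustment over all genes of the fit. With TXX-1-10 against vehicle, 6 of the 9 genes were past both thresholds and lower (RRM1, RRM2, TYMS, TK1, DUT and CTPS1), and 1 was higher (UPP1). The share of all genes called in that comparison was 11.8% in the fit over 9 libraries (7.6% lower and 4.2% higher), and 12.7% in the fit over 8 libraries used for TYMS. The libraries of the 2 groups did not overlap for any of the 9 genes, 8 lower and 1 higher. Over all genes 46.3% were separated and lower and 32.4% separated and higher. With rimonabant against vehicle only UPP1 was called, and higher, against 1.13% of all genes (0.614% lower and 0.519% higher, and 1.49% in all over 8 libraries). There 3 of the 9 were separated and lower, 3 separated and higher, and 3 overlapped, beside 31.5% lower and 29.7% higher over all genes. The median log2 fold change over the 9 genes was -1.51 with TXX-1-10 and -0.11 with rimonabant, while the median of all genes was -0.09 and -0.02. Leaving out rimonabant replicate 1 and TXX-1-10 replicate 3 together left 7 of the 9 called with TXX-1-10 and 1 with rimonabant.

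RRM1, the large subunit of ribonucleotide reductase, lies on chromosome 11 at 4094707 to 4138876 on the forward strand (GRCh38, GENCODE 29, as for all genes here). Its level was 67.0, 64.0 and 62.9 FPKM in the vehicle libraries, 64.7, 61.0 and 63.5 FPKM with rimonabant, and 22.8, 20.8 and 24.3 FPKM with TXX-1-10. Vehicle and rimonabant overlapped, and the TXX-1-10 libraries were all lower. The log2 fold change was -1.51 with TXX-1-10 (SE 0.06, a 2.86-fold lower level) and -0.04 with rimonabant (SE 0.06, 95% interval -0.15 to 0.08).

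RRM2, the small subunit that carries the tyrosyl radical needed for catalysis, lies on chromosome 2 at 10120698 to 10131419. It was read 2672, 2656 and 2425 times in the vehicle libraries (29.4, 28.9 and 26.5 FPKM) and 362, 414 and 430 times with TXX-1-10 (3.53, 4.23 and 4.39 FPKM). With rimonabant it was read 3894, 3775 and 3892 times (41.9, 37.7 and 39.5 FPKM). Every rimonabant library was thus above every vehicle library and every TXX-1-10 library below. Against vehicle the log2 fold change was -2.8 with TXX-1-10 (SE 0.09, a 6.98-fold lower level) and 0.49 with rimonabant (SE 0.08, 1.4-fold higher). Among the 4236 genes, RRM2 had the fourth lowest log2 fold change with TXX-1-10 against vehicle and the lowest with TXX-1-10 against rimonabant, at -3.29 (SE 0.09), a 9.8-fold difference. Without the pair of libraries that stood apart the value between the compounds was -3.32. The gene AC007240.1 overlaps RRM2 on the same strand over 8681 bases. Its counts were 68 and 66 in vehicle, 45 and 44 with rimonabant, and 23 and 13 with TXX-1-10, in the libraries that list it, all far below those of RRM2. Reads of near-identical pseudogene copies, which RRM2 and DUT have, could be shared out differently by another counting.

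Because both subunits are needed for the enzyme, their ratio was taken within each library. RRM2 over RRM1 was 0.439, 0.452 and 0.421 in vehicle, 0.647, 0.618 and 0.621 with rimonabant and 0.155, 0.203 and 0.181 with TXX-1-10. The ratio was higher than vehicle in all rimonabant libraries and lower in all TXX-1-10 libraries, so the transcripts of the pair did not move in proportion with either compound. RRM2B, the p53-inducible small subunit that also serves quiescent cells and mitochondrial DNA, was listed for 8 libraries. Its level was 6.29, 5.45 and 5.62 FPKM in vehicle, 7.56 and 7.56 with rimonabant, and 7.28, 7.39 and 6.9 with TXX-1-10. It was somewhat higher with both compounds, by 0.31 on the log2 scale with TXX-1-10 (SE 0.07, adjusted p = 0.0012 by edgeR) and 0.39 with rimonabant (SE 0.08, adjusted p = 0.00148), short of the fold threshold. No difference between the compounds passed the test, at -0.07 on the log2 scale (95% interval -0.22 to 0.07), although their libraries did not overlap. RRM2B over RRM2 went from 0.205 ± 0.0145 in vehicle (SD, n = 3) to 1.8 ± 0.249 with TXX-1-10 (n = 3), and was 0.201 and 0.192 in the rimonabant libraries. With TXX-1-10, RRM2B was thus the more abundant small subunit transcript in all 3 libraries.

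The stretch before the RRM2 start is shown because it repeats a CCAAT box, the pentamer bound by NF-Y in many cell-cycle genes, and those before RRM1 and TYMS because they hold the motif matches nearest to the starts of the other genes called lower with TXX-1-10. Sequences are from RefSeq promoters of GRCh38.p14, forward strand, and capitals mark CCAAT in RRM2 and RRM1 and, in TYMS, the reverse complement of an E2F word. The regions are chr2:10122599-10122688, chr11:4094645-4094674 and chr18:657608-657631.
RRM2: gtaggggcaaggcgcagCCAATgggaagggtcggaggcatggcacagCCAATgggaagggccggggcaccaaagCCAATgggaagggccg
RRM1: gcatgtccatatCCAATggggcccatggga
TYMS: acggccGCGGGAAAaggcgcgcgg
In RRM2 the 3 copies begin 123, 93 and 66 bases before the RefSeq start, each followed by the same GGGAAGGG. In 2 GENCODE transcripts that start further upstream the stretch is part of the first exon, with 20 untranslated and 70 coding bases. All 24 TYMS bases lie in the untranslated part of the first exon of 1 transcript, and the RRM1 stretch lies in no exon of RRM1. Over the 250 bases before the start, on both strands, 3 or more copies of CCAAT were found in 3.09% of 27305 promoters. At least 1 copy was found in 33.0% of promoters, and in 3 of the 9 genes (RRM1, RRM2 and CAD). The E2F words searched, TTTGGCGC, TTTCCCGC, TTTCGCGC and TTTGCCGC, were found in 2.79% of promoters and in 1 of the 9 genes (TYMS). The cell-cycle word TTTGAA was found in 13.6% and in 2 of the 9 (RRM1 and UMPS), and TGATGNAA, the amino acid response word, in 3.19% and in none of the 9. No searched word was shared by the 6 genes called lower, and a match or its absence in this window says nothing of the factor.

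TYMS, which methylates dUMP to dTMP and is the target of fluorouracil, lies on chromosome 18 at 657604 to 673578. Its level was 19.2, 16.5 and 16.4 FPKM in vehicle, 19.8 and 19.8 FPKM in the rimonabant libraries that list it, and 5.17, 6.16 and 6.2 FPKM with TXX-1-10. The rimonabant libraries were above all vehicle libraries by a margin smaller than the spread within vehicle, and the TXX-1-10 libraries were all lower. In the fit over 8 libraries the log2 fold change was -1.57 with TXX-1-10 (SE 0.09) and 0.19 with rimonabant (SE 0.09, 95% interval 0.01 to 0.37). The interval is a normal approximation, narrow for so few libraries, so its lower end of 0.01 is not read as a rise. Over all genes of that fit, 41.2% were separated and lower with TXX-1-10 against vehicle, 36.5% separated and higher with rimonabant, and 39.4% separated and lower between the compounds, as TYMS was. ENOSF1 overlaps TYMS from the opposite strand over 3255 bases, and whether the counting used strand was not given in the sources used here. ENOSF1 counts were 639 to 732 in vehicle, 588 and 605 with rimonabant and 578 to 656 with TXX-1-10.

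TK1, the cytosolic thymidine kinase of proliferating cells, lies on the reverse strand of chromosome 17 at 78174075 to 78187233. Its level was 106, 111 and 123 FPKM in vehicle, 108, 83.3 and 92.7 FPKM with rimonabant, and 32.8, 32.5 and 38.3 FPKM with TXX-1-10. Vehicle and rimonabant overlapped through rimonabant replicate 1, one of the libraries that stood apart, and TXX-1-10 was lower throughout. On the log2 scale the change was -1.71 with TXX-1-10 (SE 0.11) and -0.26 with rimonabant (SE 0.1), the latter -0.36 without both libraries that stood apart. The transcripts of the salvage and synthesis enzymes for thymidylate kept a similar ratio with TXX-1-10, where TK1 over TYMS was 5.28 to 6.34 beside 5.49 to 7.51 in vehicle. It was 4.2 and 4.67 in the rimonabant libraries, below both other groups.

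DUT, the dUTPase, lies on chromosome 15 at 48331011 to 48343373. It stood at 31.3, 31.0 and 29.1 FPKM in vehicle, at 26.9, 24.2 and 25.2 FPKM with rimonabant and at 13.7, 14.0 and 17.2 FPKM with TXX-1-10. The 3 groups did not overlap, and TXX-1-10 replicate 3 was the highest of its group. The log2 fold change with TXX-1-10 was -1.03 (SE 0.08), at the edge of the fold threshold. It was -0.93 with TMM factors, -0.97 without TXX-1-10 replicate 1 and -0.98 without TXX-1-10 replicate 2, which ends the call, and -1.14 without both libraries that stood apart. With rimonabant it was -0.26 (SE 0.08).

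The other enzymes around thymidylate followed in part. DTYMK, which phosphorylates dTMP, fell with TXX-1-10 by 1.25 on the log2 scale (SE 0.1, adjusted p = 1.42e-06 by edgeR), as did NME1, a nucleoside diphosphate kinase, by 1.29 (SE 0.13, adjusted p = 7.05e-06). DCK, the deoxycytidine kinase that activates gemcitabine, was -0.46 with TXX-1-10 (SE 0.07, adjusted p = 4.99e-05 by edgeR) and 0.17 with rimonabant (SE 0.07, adjusted p = 0.0837). SAMHD1, which degrades deoxynucleoside triphosphates, was -0.79 with TXX-1-10 (SE 0.06, adjusted p = 1.01e-06) and -0.11 with rimonabant (SE 0.06, adjusted p = 0.155). Neither DCK nor SAMHD1 reached the fold threshold with either compound.

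CAD, the fused enzyme of the first 3 steps of pyrimidine synthesis, lies on chromosome 2 at 27217390 to 27243943. Its level was 36.9, 37.3 and 37.2 FPKM in vehicle, 21.1, 24.5 and 24.3 FPKM with rimonabant, and 22.4, 22.9 and 18.6 FPKM with TXX-1-10. Both compounds lay below vehicle and overlapped each other. The lowest library in each treated group was the one that stood apart, rimonabant replicate 1 and TXX-1-10 replicate 3. The log2 fold change was -0.8 with TXX-1-10 (SE 0.08) and -0.67 with rimonabant (SE 0.08), both short of a fold of 2, and the difference between compounds was -0.13 (95% interval -0.29 to 0.03). Among 4236 genes CAD was the 494th lowest with TXX-1-10 and the 101st lowest with rimonabant. Without both of those libraries its log2 fold change was -0.71 with TXX-1-10 and -0.61 with rimonabant.

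DHODH, the mitochondrial enzyme after CAD, was also lower with both compounds, with levels of 3.54, 3.38 and 3.57 FPKM in vehicle, 2.03 and 2.17 with rimonabant and 1.57, 1.58 and 1.67 with TXX-1-10. It fell by 1.12 on the log2 scale with TXX-1-10 (SE 0.08, adjusted p = 6.3e-08 by edgeR over 8 libraries) and was -0.74 with rimonabant (SE 0.09, adjusted p = 4.13e-05). Unlike for CAD, the compounds were separated, by -0.39 on the log2 scale (SE 0.09, adjusted p = 0.00288 by edgeR). The TXX-1-10 call ends (-0.79) when log2(FPKM + 1) is tested with limma, which shrinks changes of low genes. UMPS, the enzyme that completes UMP, lies on chromosome 3 at 124730366 to 124749273 and changed least with TXX-1-10. Its level was 10.8, 10.5 and 10.1 FPKM in vehicle, 10.1, 9.24 and 9.81 with rimonabant, and 6.95, 6.89 and 6.74 with TXX-1-10. Rimonabant overlapped vehicle at its highest library, while TXX-1-10 was lower by 0.61 on the log2 scale (SE 0.05).

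CTPS1, the CTP synthase of proliferating lymphocytes and tumours, lies on chromosome 1 at 40979335 to 41012565. Its level was 9.14, 8.79 and 9.19 FPKM in vehicle, 7.69, 6.98 and 7.24 FPKM with rimonabant, and 2.89, 2.95 and 3.03 FPKM with TXX-1-10. The groups did not overlap, and the TXX-1-10 libraries were close to each other. Relative to vehicle, its log2 fold change was -1.61 with TXX-1-10 (SE 0.05, a 3.05-fold lower level) and -0.31 with rimonabant (SE 0.05). CTPS2, the other CTP synthase, was at 4.65, 4.49 and 4.59 FPKM in vehicle, 5.15 and 4.85 with rimonabant, and 3.98, 4.2 and 4.05 with TXX-1-10. Its log2 fold change was -0.17 with TXX-1-10 (SE 0.07, adjusted p = 0.0412 by edgeR over 8 libraries) and 0.13 with rimonabant (SE 0.07, adjusted p = 0.184). In FPKM, CTPS2 thus stood above CTPS1 with TXX-1-10 and below it in vehicle. That order rests on the lengths divided by, 11517 bases for CTPS1 and 5510 for CTPS2. In reads, CTPS1 stayed above CTPS2 with TXX-1-10 (642, 626 and 643 beside 423, 426 and 411).

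UPP1, uridine phosphorylase, lies on chromosome 7 at 48088628 to 48108733 and was the only one of the 9 to be higher with TXX-1-10. It was read 1009, 967 and 1021 times in vehicle (12.9, 12.3 and 13.0 FPKM), 2498, 2159 and 2225 times with rimonabant (31.2, 25.1 and 26.2 FPKM) and 8723, 8051 and 9666 times with TXX-1-10 (98.9, 95.6 and 115 FPKM). The 3 groups were widely separated. The log2 fold change was 3.02 with TXX-1-10 (SE 0.1, an 8.11-fold higher level), 1.11 with rimonabant (SE 0.09, 2.17-fold) and 1.91 between the compounds (SE 0.09, 3.75-fold). It ranked second highest of 4236 genes with TXX-1-10, 10th with rimonabant and 6th between compounds. The highest library of each treated group was again the one that stood apart, and without both the log2 fold change was 2.94 with TXX-1-10 and 1.01 with rimonabant. UMPS makes the nucleotide from which uridine derives. The FPKM ratio of UPP1 over UMPS was 1.21 ± 0.0642 in vehicle (SD, n = 3), 2.83 ± 0.228 with rimonabant and 15.0 ± 1.73 with TXX-1-10. The ratio depends on the lengths divided by, and in vehicle UPP1 had fewer reads than UMPS (1404, 1376 and 1315).

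Other genes of these routes were read from lists of pathway genes: 60 nucleotide genes outside the 9, of which 47 could be tested, and 15 genes of S phase, all tested. The 20 genes with the largest called changes are named, with others named by role. PPAT, MCM7, CHAF1A and CTPS2 were named after their values were seen. Of 18 tested genes of deoxynucleotide supply, 2 were called lower with TXX-1-10 (DTYMK and NME1) and 2 higher. The shares of all genes called were 7.6% lower and 4.2% higher over 9 libraries, and 12.7% in all over 8. All TXX-1-10 libraries lay below vehicle for 8 of the 18 and above it for 5. Over all genes of the fit over 9 libraries these shares were 46.3% and 32.4%. The median log2 fold change was -0.1, near the -0.09 of all genes in that fit. Part of the list was fitted over 8 libraries, where the median of all genes was -0.04 and 41.2% were separated and lower. The 2 called higher belong to the thiol systems that recycle ribonucleotide reductase and serve redox defence at large. GLRX, glutaredoxin, rose from 9.05, 9.15 and 8.51 FPKM in vehicle to 26.7, 24.4 and 30.3 FPKM with TXX-1-10, a log2 fold change of 1.61 (SE 0.08, adjusted p = 4.24e-08 by edgeR), and stood at 16.4, 15.0 and 15.0 FPKM with rimonabant (0.8, SE 0.08, adjusted p = 4.1e-05). TXNRD1, thioredoxin reductase, rose by nearly the same amount with both compounds, 1.08 with TXX-1-10 (SE 0.06, adjusted p = 4.89e-08) and 1.01 with rimonabant (SE 0.06, adjusted p = 9.75e-07). The difference between compounds was 0.07 (95% interval -0.04 to 0.18). The rimonabant call of TXNRD1, the only one on these lists, ends narrowly, with 0.98 as the lowest value, without vehicle replicate 3 or rimonabant replicate 2.

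Of 11 other pyrimidine genes tested, DHODH alone was called with TXX-1-10, and the median log2 fold change was -0.39. Over all genes 11.8% were called in the fit over 9 libraries (7.6% lower) and 12.7% in the fit over 8. All TXX-1-10 libraries lay below vehicle for 7 of the 11 and above it for 1. Of all genes over 9 libraries, 46.3% were separated and lower and 32.4% higher, and 41.2% were lower over 8. Of 18 genes of purine synthesis and salvage, 3 were called lower with TXX-1-10: PFAS by 1.48 on the log2 scale (SE 0.07, adjusted p = 1.99e-08 by edgeR), PAICS by 1.4 (SE 0.08, adjusted p = 1.39e-07), and PPAT by 1.01 (SE 0.07, adjusted p = 3.19e-08). All TXX-1-10 libraries lay below vehicle for 14 of the 18 and above it for 2. Over all genes of the fit over 9 libraries these shares were 46.3% and 32.4%. PPAT catalyses the committed step of the purine ring, and PFAS and PAICS act after it. The PPAT call ends under 10 of 21 alternatives, among them TMM factors and leaving out vehicle replicate 1, vehicle replicate 3 or TXX-1-10 replicate 1, with values down to -0.87. The purine median was -0.66 with TXX-1-10 and -0.2 with rimonabant, where no gene of the list was called at the fold threshold and 12 of 18 had an adjusted p under 0.05 by edgeR, 9 lower and 3 higher, beside 25.2% of all genes lower and 23.7% higher by that measure.

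**Figure D2:**
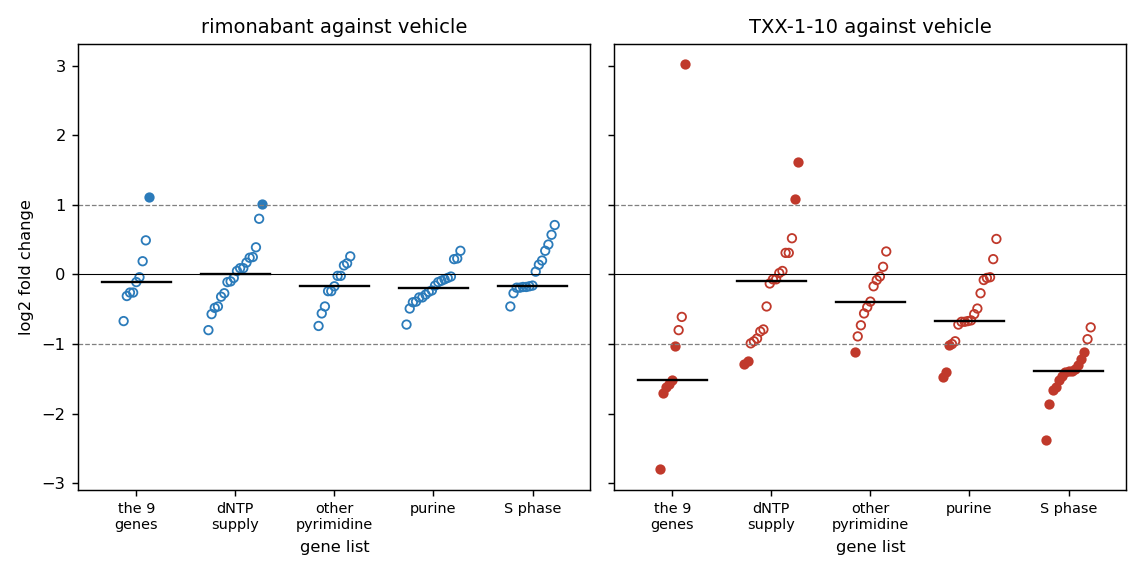
Log2 fold change (vertical axis) of every tested gene of each list with rimonabant (left) and TXX-1-10 (right). Filled points are called, open points are not, the bar is the list's median and dashed lines mark a fold of 2. With TXX-1-10 the median is -1.51 for the 9 genes, -0.1 for deoxynucleotide supply, -0.39 for other pyrimidine genes, -0.66 for purine genes and -1.39 for S phase genes.

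The S phase genes had the largest share of calls among the pathway lists with TXX-1-10, against vehicle and against rimonabant. With TXX-1-10 against vehicle, 13 of 15 were called lower, beside 7.6% of all genes in the fit over 9 libraries. The median was -1.39 on the log2 scale. The 2 not called, MCM7 (-0.76) and CHAF1A (-0.93), were lower as well. GINS2, part of the replicative helicase, fell by 2.38 (SE 0.1, adjusted p = 8.71e-10 by edgeR), and CDC6 and CDC45, which load and start that helicase, fell by 1.86 (SE 0.05, adjusted p = 9.23e-10) and 1.66 (SE 0.07, adjusted p = 7.06e-10). The helicase subunits MCM2, MCM3, MCM4, MCM5 and MCM6 had log2 fold changes of -1.36, -1.51, -1.62, -1.4 and -1.39, and POLA1, the primase-bound polymerase, -1.39. PCNA and FEN1, the sliding clamp and the flap nuclease, fell by 1.12 and 1.22, and the PCNA call ends at -0.97 once the length trend is removed. With rimonabant none of the 15 was called, although 12 had an adjusted p under 0.05 by edgeR, 7 lower and 5 higher. By that measure 25.2% of all genes in the fit over 9 libraries were lower and 23.7% higher. E2F1, the transcription factor of the G1/S genes, was 39.3, 39.8 and 38.2 FPKM in vehicle, 63.5, 53.5 and 57.6 FPKM with rimonabant and 14.5, 15.1 and 18.0 FPKM with TXX-1-10. Like RRM2, E2F1 lay above vehicle in every rimonabant library and below it in every TXX-1-10 library. Its log2 fold change was 0.57 with rimonabant (SE 0.08, adjusted p = 0.000415 by edgeR) and -1.3 with TXX-1-10 (SE 0.09, adjusted p = 4.16e-07), and between compounds -1.87 (SE 0.09). CCNE2, cyclin E2, showed the same order, with 0.71 for rimonabant, -1.46 for TXX-1-10 and -2.17 between compounds in the fit over 8 libraries. No p-value between the compounds is given for E2F1 and CCNE2, since they are set out here for this placing. In bulk RNA, fewer cells in S phase and less of these transcripts per cell cannot be told apart, and this touches every gene above that is made for S phase.

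Between the compounds, a single pair, 5 of the 9 genes were called lower with TXX-1-10 than with rimonabant (RRM1, RRM2, TYMS, TK1 and CTPS1) and UPP1 higher, beside 5.93% of all genes called (4.34% lower and 1.58% higher, and 6.41% in all over 8 libraries). The libraries were separated in 7 lower genes and UPP1, and CAD alone overlapped, beside 38.8% of all genes separated and lower and 24.8% separated and higher. Of the pathway lists, 14 of 15 S phase genes were called lower, as was NME1 (-1.02, SE 0.13, adjusted p = 6.7e-05 by edgeR). The libraries of all 15 were separated and lower, and MCM7 (-0.56) alone missed the fold threshold. No gene of the other pyrimidine list or the purine list was called. PAICS (-1.0, SE 0.08, adjusted p = 3.08e-06 by edgeR) narrowly missed the fold threshold and was called under 4 of 21 alternatives. The CHAF1A call ends under 5 of 21 alternatives, among them TMM factors, DESeq2 and removal of the length trend, and the POLA1 call under limma with a pseudocount of 1. The NME1 call ends under 9 of 21 alternatives, among them leaving out rimonabant replicate 1, TXX-1-10 replicate 1 or TXX-1-10 replicate 2.

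The genes most like RRM2 and UPP1 over the 9 libraries were ranked among 4235 others by the root mean square difference of log2 FPKM, each gene first set to its vehicle mean. For RRM2 these were CTGF (0.394), NCAPG (0.429), TCF19 (0.459), MCM10 (0.492) and LMNB1 (0.508). TCF19 was the only one of the 5 that was also above vehicle with rimonabant, by 0.54 beside -2.03 with TXX-1-10 on the log2 scale, and the others were -0.31 to -0.05 with rimonabant. For UPP1 the list opened with PNRC1 at a difference of 0.0855, with log2 fold changes of 3.01 with TXX-1-10 and 1.25 with rimonabant. KLHL24 (0.227), FAM102A (0.252), TRIB3 (0.284) and GABARAPL1 (0.315) followed, all higher with both compounds. By this measure the genes nearest UPP1 (0.0855 to 0.315) were all closer than those nearest RRM2 (0.394 to 0.508), PNRC1 by the most. The measure is not scaled for the read counts of a gene, and this difference was not tested.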

How the data were processed

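Total RNA of MDA-MB-231 cells was selected with oligo(dT) and sequenced on an Illumina instrument. The authors deposited, for each library, a list of genes with read counts and FPKM values. The submitters' processing notes name HISAT2 2.0.5 and featureCounts 1.5.0-p3. The build was not named with them, and the coordinates of all 27615 gene IDs match GENCODE 29 (GRCh38). A broken last line was dropped from each of the 9 lists, which were used as far as they went. The deposited counts were joined by gene ID, and library size was the total that the FPKM values imply. Genes with a mean FPKM under 1 were left out. Counts were tested with edgeR 4.0.16 (quasi-likelihood, 3 groups in 1 fit, no covariate, Benjamini-Hochberg), in R 4.3.3. TYMS and other genes missing for rimonabant replicate 1 were fitted over 8 libraries. Calls needed a fold of 2 and an adjusted p under 0.05. An exact two-sided permutation test of 3 against 3 libraries cannot go below 0.1. The fits were tested on simulated data.

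The members and the pathway lists were chosen with earlier results of these data known. An item of the original lists is not reported here. The text names the 9 members, at most 20 pathway genes called in any comparison, by largest change, 5 genes by role (RRM2B, DHODH, DTYMK, DCK and SAMHD1), and the 5 genes nearest in pattern to RRM2 and UPP1. Alternatives were TMM and DESeq2 size factors, DESeq2 1.42.0, limma 3.58.1 on log2 FPKM with a pseudocount of 1 or 0.1, other filters, a replicate block, removal of the length trend, and leaving out libraries. Most same-numbered libraries of different groups did not deviate together (correlations -0.79 to 0.83, with 1 of 9 over 0.1). The 0.83 was between rimonabant replicate 2 and TXX-1-10 replicate 2. Rimonabant replicate 1 went with TXX-1-10 replicate 3 (0.9), so the numbers were not taken as pairs. Each SE is the absolute log2 fold change divided by the square root of the quasi-likelihood F statistic. Intervals cover the spread between libraries and are normal approximations from the SE, which are narrow for so few libraries.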

Additional observations from a re-analysis of the deposited data

Results flagged for a closer look

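RRM2 and TYMS lay on opposite sides of vehicle with the 2 compounds in every library that lists them. The log2 fold change of RRM2 was -2.8 with TXX-1-10 and 0.49 with rimonabant, and that of TYMS was -1.57 and 0.19. Among the genes of the pathway lists, the same opposite placing was found for 8: CCNE2 (-1.46 with TXX-1-10 and 0.71 with rimonabant), E2F1 (-1.3 and 0.57), PCNA (-1.12 and 0.43), FEN1 (-1.22 and 0.34), CDC45 (-1.66 and 0.2), DCK (-0.46 and 0.17), CHAF1A (-0.93 and 0.14) and CTPS2 (-0.17 and 0.13). These genes were picked here for that placing, and RRM2 and TYMS were chosen with it in view, so a test between the compounds would restate the choice. The difference in direction was not tested apart from it. How many of all genes share this placing was not counted. The 8 stand among 62 pathway genes tested. Over all genes, 46.3% were separated and lower with TXX-1-10 and 29.7% separated and higher with rimonabant (41.2% and 36.5% over 8 libraries). TYMS, CCNE2, CDC45, DCK and CTPS2 have 2 rimonabant libraries. Among the 8 pathway genes, the rimonabant rise missed an adjusted p of 0.05 by edgeR for DCK (0.0837), CHAF1A (0.0501) and CTPS2 (0.184). For TYMS no p-value is given, and its 0.19 with rimonabant is not read as a rise.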

How the results depend on the processing

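No log2 fold change of the 9 genes changed direction under the alternatives run. Of these values, 583 kept their side of the thresholds and 8 did not, all of them DUT with TXX-1-10 against vehicle (-0.99 to -0.92). These were TMM factors, DESeq2 size factors, DESeq2, limma with a pseudocount of 1, the length trend removed with and without the block, and leaving out TXX-1-10 replicate 1 or 2. Scaling moved the median of all genes with TXX-1-10 from -0.09 to 0.00 or 0.01. Over all genes of the 8-library fit, without rimonabant replicate 1, the called genes numbered 1187 with TXX-1-10 (500 of the 4236 genes in all 9), 140 with rimonabant (48) and 601 between compounds (251), since more genes were tested. The pathway genes called with rimonabant numbered 0 to 1 when each library was left out, TXNRD1 being lost without vehicle replicate 3 or rimonabant replicate 2. With a replicate block, 7, 1 and 6 of the 9 genes were called in the 3 comparisons, as without it, and the calls over all genes were 501, 48 and 250. The numbers did not pair the samples, and a library correlated best with its own number in 4 of 18 cases. The lowest count of the 9 genes was 246.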
